A study of Mus musculus with 24 samples.

Results

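Cultured mouse vibrissa follicles given pyridoxine hydrochloride (PH), a form of vitamin B6, for 24 h were compared with follicles cultured without an added compound. The comparison set 3 arrays of the PH group against 3 of the control group, 6 of the 24 arrays of the series. They were chosen by the group and replicate number in their labels. The spread behind standard errors and p-values was estimated from all 24 arrays. Follicles came from postnatal day 9 B6C3F1 mice and were kept in RPMI medium with 10% fetal bovine serum. PH was given at 0.015%, and control follicles had none of the compounds. Other groups had panthenyl ethyl ether (PEE) at 0.3%, tocopherol acetate (TA) at 0.024%, or combinations of the 3 compounds. Apart from the estimate of the spread, they are used here only where they bear on PH. Each sample was RNA pooled from 10 follicles, and the 3 samples of a group were independent experiments. The study asked whether these vitamins and derivatives promote growth of the hair shaft in culture.

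The growing hair follicle is a small organ in which matrix cells at its base divide and then differentiate into the hair shaft and the inner root sheath that encases it. Both structures are built largely from type-specific keratins, and the inner root sheath is hardened by enzymes that modify its proteins. Vitamin B6 is taken up and converted in cells to pyridoxal phosphate, the cofactor of many enzymes of amino acid metabolism. Whole follicles also contain dermal papilla and sheath cells, resident immune cells and vessels, so RNA of all of these was measured together. In such samples fewer cells of a type and less RNA per cell cannot be told apart.

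Levels are log2 signal relative to the 75th percentile of signal on the same array, so that 0 is the level of a fairly bright probe, and a difference is PH minus control on this log2 scale. Values after ± are standard errors unless called SD, and n was 3 arrays per group throughout. The 75th percentile of signal was 180, 183 and 192 on PH arrays and 190, 170 and 155 on control arrays. Between 58.5 and 59.9% of spots were well above background on PH arrays, and between 59.0 and 60.9% on control arrays. Arrays of the PH group correlated across genes at r of 0.993 to 0.995, and control arrays at 0.995 to 0.996, where genes are not independent replicates. On a principal component analysis of the 6 arrays, the first component held 42.8% of the variance and had PH arrays at -13.6, -35.9 and -18.3 and control arrays at 17.1, 19.9 and 30.8. Keratins of the hair shaft, which mark the labelled tissue, were well expressed, with a mean level over 16 genes of 3.07, 3.44 and 3.67 on PH arrays and 3.03, 3.32 and 2.63 on control arrays. Skeletal muscle markers (20 genes) averaged 0.91, 0.34 and -0.52 on PH arrays and 0.36, 0.05 and 0.17 on control arrays.

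The groups also differed in the transcript of the inactive X chromosome, which cells with 2 X chromosomes make. The XIST probe had levels of -7.44, -2.06 and -7.53 on PH arrays and 0.17, 0.74 and -0.60 on control arrays, and the groups did not overlap. It was well above background on 1 of the 3 PH arrays and on all 3 control arrays, so that 2 PH values are bounds and no size is given for the difference, which did not pass (limma, adjusted p = 0.0673). A second and dimmer probe, named Xist, was not above background on any PH array, nor on control replicate 3, PEE replicate 1, PH-TA replicates 1 and 3 or PEE-TA replicate 3. The Y-linked genes Eif2s3y, Kdm5d, Uty and Ddx3y differed by 0.24, 0.32, 0.24 and 0.07 and none passed. Kdm5d had -1.82, -1.87 and -1.72 on PH arrays and -2.18, -2.19 and -2.02 on control arrays, without overlap. Uty also had PH arrays all above control arrays, but barely, with the nearest arrays of both groups at -2.39. In Eif2s3y and Ddx3y the groups overlapped. The labels give no sex of the mice. PH-TA replicate 1 and PEE-TA replicate 3 were the only other arrays with the XIST probe itself below background, which all 6 arrays of PEE-PH and PEE had above it. These genes were looked at after the values were seen. The main counts below are therefore also given with XIST level as a covariate where it moved them by over 1.5 times, an alternative chosen after the data were seen. It is partly confounded with PH itself.

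**Figure D1:**
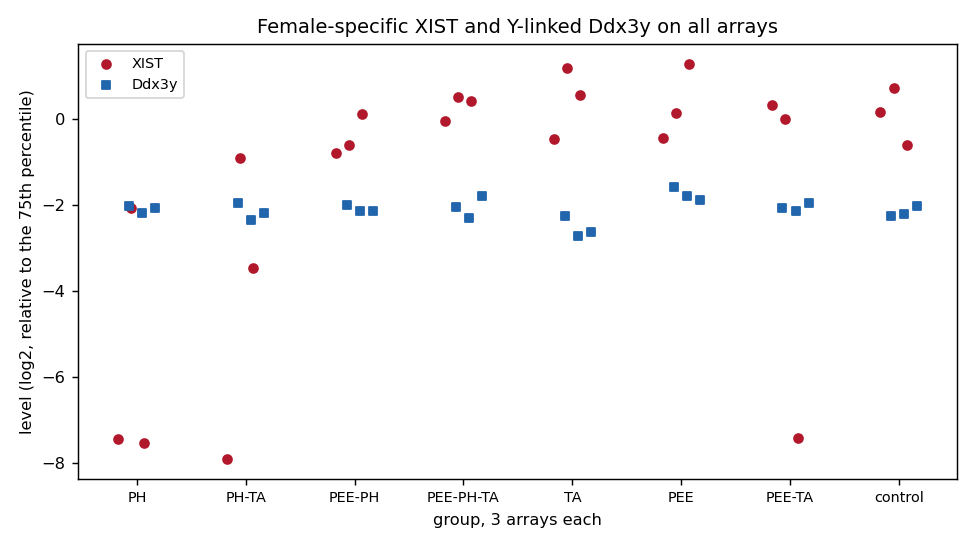
Level of the XIST probe (circles) and of the Y-linked gene Ddx3y (squares) on each of the 3 arrays of all 8 groups, as log2 signal with the array 75th percentile at 0. Among the Y-linked genes named in the text, Ddx3y had the smallest difference between PH and control. PH arrays had XIST at -7.44, -2.06 and -7.53, and Ddx3y had -2.01, -2.17 and -2.05 on PH arrays and -2.24, -2.19 and -2.01 on control arrays, with all PEE arrays (-1.57, -1.78 and -1.88) above all TA arrays (-2.25, -2.72 and -2.63).

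Of 22065 genes or transcripts tested, 352 (1.6%) rose and 806 (3.65%) fell with PH against control (limma, adjusted p under 0.05). A further view without a test is that 2456 (11.1%) had all 3 PH arrays above all 3 control arrays, and 3397 (15.4%) had all below. The median difference was 0.46 among genes that rose and -0.66 among those that fell, and at least 2-fold changes numbered 21 rises (0.0952%) and 153 falls (0.693%). The larger falls were mostly transcripts without a gene name: gene models, clones and accessions were 29.5% of what was tested but 128 of the 153 (83.7%). Among protein-coding genes matched to RefSeq, 309 rose and 377 fell, with 18 and 16 of them past 2-fold. Single arrays mattered to the count. Without PH replicate 2 there were 56 rises and 223 falls, and without control replicate 3 there were 89 and 235. Leaving out PH replicate 3 gave 219 and 492, control replicate 2 gave 179 and 444, and control replicate 1 gave 187 rises. With XIST level as a covariate there were 21 and 131. A model of only the PH and control arrays gave 72 and 246. With quantile normalization, the split was 518 rises to 621 falls, against 352 to 806.

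**Figure D2:**
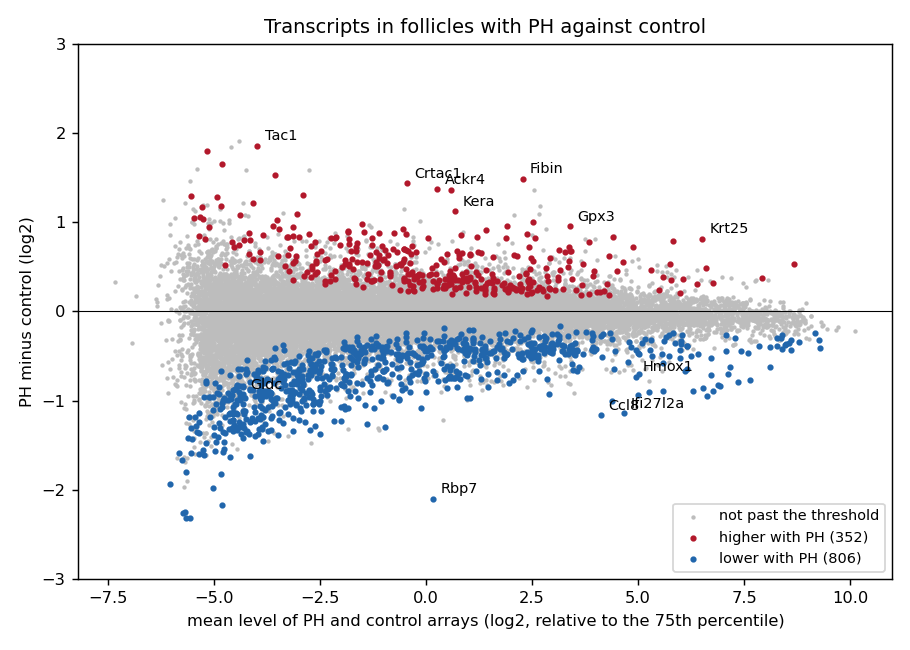
Each point is 1 of 22065 genes or transcripts, with its mean level over PH and control arrays on the horizontal axis and its PH minus control difference on the vertical axis, both in log2. The 352 genes higher and 806 lower with PH are coloured, and most of the larger falls lie among dim transcripts on the left while Rbp7 and Fibin stand out among brighter ones.

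The largest fall in a named gene was in Rbp7, which encodes a cytosolic retinol-binding protein. Its probe lies on chromosome 4 from 148823870 to 148823929 in mm9. Rbp7 had levels of -0.90, -0.97 and -0.77 on PH arrays and 1.33, 1.30 and 1.04 on control arrays. The 2 groups lay far apart, with 4.3-fold less signal in PH follicles (difference -2.10 ± 0.23; limma, adjusted p = 0.000223). Its call stood without each array in turn and with the XIST covariate (-1.93, adjusted p = 0.0158).

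The 15 largest rises in named genes encoded proteins of many kinds. Tac1, which encodes the precursor of the neuropeptide substance P, had -2.64, -3.20 and -3.29 on PH arrays and -5.20, -4.73 and -4.78 on control arrays, at chromosome 6 from 7512893 to 7512952 in mm9. All PH arrays lay above all control arrays, by 1.86 ± 0.34 (limma, adjusted p = 0.00423), and its other probe also rose. Fibin, whose zebrafish counterpart acts in fin bud formation, had 2.79, 3.24 and 3.04 on PH arrays and 1.48, 1.51 and 1.62 on control arrays. This was a rise of 1.49 ± 0.24 in a well expressed gene (adjusted p = 0.00237), 2.8-fold. Ackr4, a receptor that removes chemokines, had 0.70, 1.15 and 1.01 on PH arrays and -0.37, -0.45 and -0.44 on control arrays, a rise of 1.37 ± 0.22 (adjusted p = 0.00237). Crtac1, a cartilage matrix protein, rose by 1.44 ± 0.29. Kera, the corneal proteoglycan keratocan, rose by 1.13 ± 0.25, and Angptl7, a secreted angiopoietin-like protein, rose by 1.36 ± 0.33. Sucnr1, the succinate receptor, rose by 1.30 ± 0.25 and Best1, an anion channel, by 1.09 ± 0.18. The germline gene Piwil2 rose by 1.66 ± 0.30, and Serpini1, a protease inhibitor, by 1.18 ± 0.27. Speer1 and Speer2 rose too, but they belong to a multigene family whose copies the probes may not tell apart. In Speer1, Tmem213, Igsf23 and Rem2 the control level was not well above background on any control array, so that only bounds of at least 2.04-, 1.31-, 2.00- and 1.51-fold can be given.

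The other named falls were mostly dim. Mir142hg, the host transcript of a microRNA of blood cells, had -2.51, -2.96 and -2.88 on PH arrays and -1.67, -1.45 and -1.52 on control arrays, a fall of 1.23 with a standard error of 0.18 (limma, adjusted p = 0.00217). Ccl8, a chemokine that attracts monocytes, had 4.15, 3.07 and 3.41 on PH arrays and 4.81, 4.45 and 4.86 on control arrays and fell by 1.16 (adjusted p = 0.0179). Ifi27l2a, an interferon-induced gene, had 4.54, 3.77 and 3.94 on PH arrays and 5.26, 5.11 and 5.32 on control arrays and fell by 1.14 (adjusted p = 0.013). These 2 were the brightest of the 15 falls. Hoxd3os1, an antisense RNA, fell by 1.42, the histone gene H2bc23 by 1.35, L1td1 by 1.30, Gdap7 by 1.28, Apol7a by 1.24, Spats1 by 1.14 and Ppnr by 1.12. Chp2, Tac4, Nefm and Olfr1333 were not well above background on any PH array and were at least 1.53-, 1.53-, 1.84- and 1.45-fold lower in PH follicles. Of the 30 largest named rises and falls, 11 kept their call without each array and each replicate number. With the XIST covariate 6 did (Rbp7, Mir142hg, Hoxd3os1, Piwil2, Speer2 and Tmem213). Sizes of dim genes depended on the processing. Over the alternative settings Tmem213 ranged from 0.02 to 1.52 (limma, highest adjusted p = 0.876) and Piwil2 from 0.12 to 1.99 (0.207). The lowest differences of Tac1, Speer1, Igsf23 and Rem2 were 0.29, 0.09, 0.02 and 0.04. Rbp7 stayed between -2.20 and -1.61, and Fibin between 1.21 and 1.61.

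**Figure D3:**
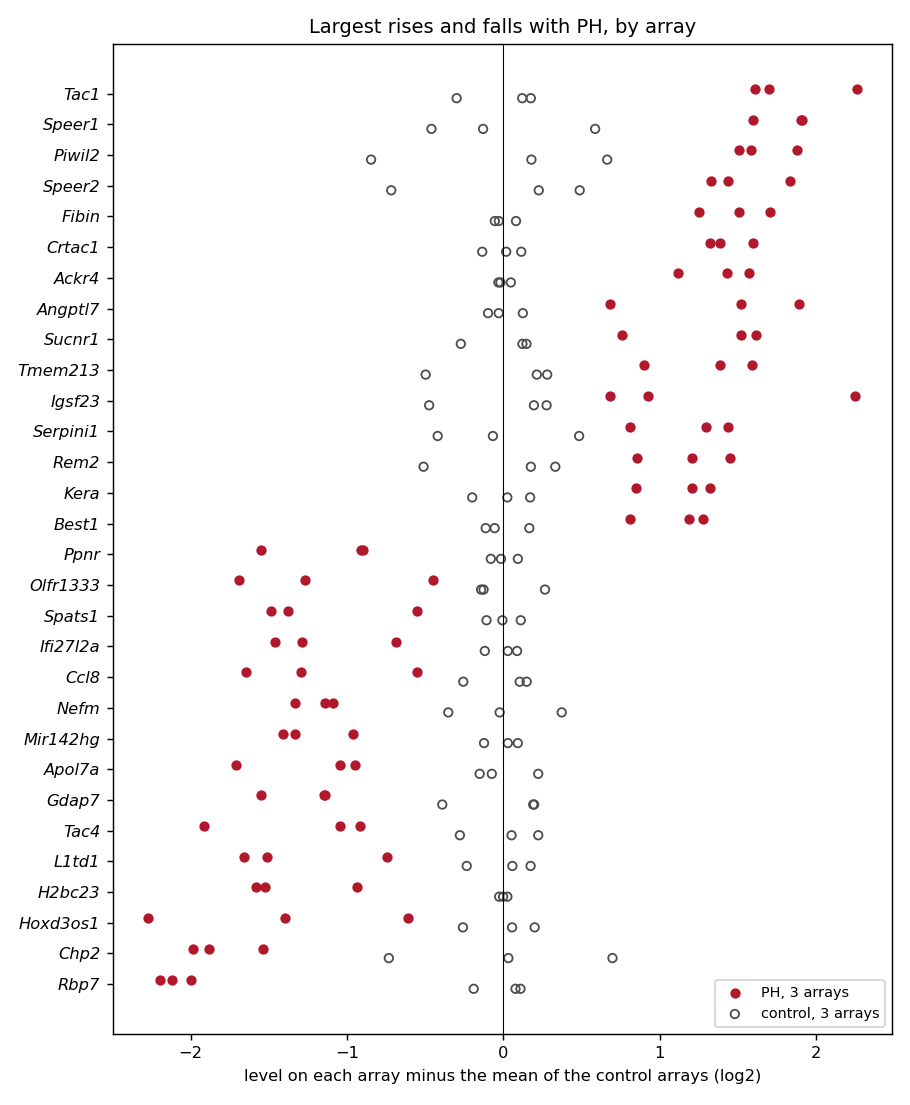
The 15 largest rises and 15 largest falls among named genes, with each of the 3 PH arrays (filled) above the 3 control arrays (open) as its level minus the mean of the control arrays, in log2. No PH array overlaps a control array in any of the 30 genes, which the choice of genes fixed, and Rbp7 lies lowest relative to control.

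Genes of cell division were lower as a group. Of 36 measured members of the list of cell cycle and mitosis genes, 13 fell and 0 rose, where 3.65% of all genes fell. The median difference was -0.35, against -0.02 for all genes tested, and 28 members had every PH array below every control array. Within replicates 1, 2 and 3 the median was -0.31, -0.31 and -0.38. The members that fell act in mitosis. Cdc25c, the phosphatase that triggers mitotic entry, had -0.38, -0.41 and -0.39 on PH arrays and 0.23, 0.11 and 0.21 on control arrays, a fall of 0.58 (limma, adjusted p = 0.00314). Cenpa, the histone variant of centromeres, had 1.21, 0.88 and 0.81 on PH arrays and 1.55, 1.42 and 1.56 on control arrays, a fall of 0.54 (adjusted p = 0.0151). Aurka fell by 0.52, Ccnb1 by 0.48, Kif20a and Cdc20 by 0.43 each, and Plk1 by 0.40. Prc1, Cenpe, Cenpf, Kif23, Ccnb2 and Tpx2 fell as well. The DNA replication genes Mcm2, Mcm3 and Pcna had differences of -0.11, -0.03 and -0.11, none of which passed. The count of falls was 1 without PH replicate 2 and 2 without control replicate 3. It was 6 to 8 without PH replicate 3 or control replicate 1 or 2, and 1 with only the PH and control arrays in the model. With the XIST covariate it was 0, and the median was -0.19. Against the same control arrays, 25 of the 36 fell with PEE alone (median -0.42), where 1256 of 22065 genes fell. With TA alone 0 fell (median -0.13).

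Promoters of 4 of the genes that fell are given because cell cycle genes are often controlled through 2 short motifs, the CHR element (TTTGAA) and the CCAAT box (CCAAT). Both strands were searched in RefSeq windows of GRCm38.p6 that run from 250 bases before to 50 bases after a gene's start, and no 2 matches overlapped in the windows of the genes listed here. Capitals mark both motifs.
Cenpa (chr5:30666636-30666935, plus strand): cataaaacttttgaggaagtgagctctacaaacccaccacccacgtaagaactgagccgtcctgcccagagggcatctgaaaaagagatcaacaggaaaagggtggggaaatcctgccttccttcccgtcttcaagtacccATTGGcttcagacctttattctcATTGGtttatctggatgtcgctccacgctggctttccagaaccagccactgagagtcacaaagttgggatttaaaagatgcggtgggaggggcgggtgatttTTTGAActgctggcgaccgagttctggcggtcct
Cdc20 (chr4:118437294-118437593, minus strand): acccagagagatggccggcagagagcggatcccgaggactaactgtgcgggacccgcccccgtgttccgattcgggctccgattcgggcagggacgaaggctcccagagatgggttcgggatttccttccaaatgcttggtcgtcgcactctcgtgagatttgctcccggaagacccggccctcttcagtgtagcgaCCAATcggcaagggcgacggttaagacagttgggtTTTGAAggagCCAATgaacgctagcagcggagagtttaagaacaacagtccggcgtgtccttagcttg
Plk1 (chr7:122159185-122159484, plus strand): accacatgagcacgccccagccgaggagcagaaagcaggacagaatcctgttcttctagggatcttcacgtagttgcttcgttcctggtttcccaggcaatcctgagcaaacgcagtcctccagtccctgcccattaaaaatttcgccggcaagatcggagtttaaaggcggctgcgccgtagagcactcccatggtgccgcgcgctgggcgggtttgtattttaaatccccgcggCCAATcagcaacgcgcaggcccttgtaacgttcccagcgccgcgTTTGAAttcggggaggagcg
Ccnb1 (chr13:100786437-100786736, minus strand): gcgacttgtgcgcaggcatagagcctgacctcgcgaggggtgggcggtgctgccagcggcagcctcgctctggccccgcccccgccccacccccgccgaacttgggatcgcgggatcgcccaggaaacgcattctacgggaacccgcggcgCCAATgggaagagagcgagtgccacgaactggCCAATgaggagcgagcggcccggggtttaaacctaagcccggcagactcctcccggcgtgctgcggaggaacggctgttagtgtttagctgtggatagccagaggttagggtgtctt
Cenpa, Cdc20 and Plk1 hold both motifs, whereas the Ccnb1 window holds CCAAT only. Of the 13 genes that fell, 10 had a window, and all 10 held CCAAT and 8 held the CHR letters. By window this was 100% and 81.8%, against 37.4% and 17.9% of all 32851 promoter windows. Among the cell cycle genes that did not pass, 18 had a window, and 72.2% held CCAAT and 38.9% the CHR letters. A match is a run of letters and shows no binding.

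Structural genes of the inner root sheath were higher. Of 15 measured members of the inner root sheath list, 5 rose and 0 fell, where 1.6% of all genes rose, and all 15 had a positive difference, with a median of 0.41. Krt25, an inner root sheath keratin, had 6.49, 7.07 and 7.19 on PH arrays and 6.07, 6.35 and 5.87 on control arrays, a rise of 0.82 ± 0.16 (limma, adjusted p = 0.00845). Padi3, which deiminates sheath proteins, had 3.41, 3.68 and 3.73 on PH arrays and 2.99, 3.29 and 2.54 on control arrays, a rise of 0.66 ± 0.18 (adjusted p = 0.04). Krt71 rose by 0.54, Krt27 by 0.49 and the desmosomal cadherin Dsc1 by 0.41. All 5 had PH arrays above all control arrays. The rise was unequal between replicates, with a list median of 0.20, 0.25 and 0.79 in replicates 1, 2 and 3. Without PH replicate 2, without control replicate 3, with the XIST covariate or with only the PH and control arrays in the model, 0 members passed. Without PH replicate 3 or control replicate 1, 1 passed, and without PH replicate 1, 8 did. With TA alone against the same control arrays 3 members rose (median 0.42), where 88 of 22065 genes rose. With PEE alone 0 rose (median -0.21).

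Hair shaft keratins did not pass. All 16 measured members had a positive difference, with a median of 0.41, yet 0 passed (2 at an unadjusted p under 0.05; 1 without PH replicate 1 or control replicate 2) and 2 had PH arrays all above control arrays. The median was -0.06, 0.05 and 1.15 in replicates 1, 2 and 3. The positive median was thus largest in replicate 3. Krt82, a cuticle keratin, had the largest difference at 0.93 (limma, adjusted p = 0.0578), and Krt85 the smallest at 0.01. Among 24 regulators of the hair matrix and shaft, Foxe1 (0.59) and the lysophosphatidic acid receptor Lpar6 (0.40) rose, where 1.6% of all genes rose. Without PH replicate 2 or 3, 0 of these regulators rose, and without PH replicate 1, 5 did. Of 17 measured outer root sheath and companion layer genes (median 0.05), 1 rose and 1 fell, where 1.6% of all genes rose and 3.65% fell. These were the stem cell marker Lgr5, which rose by 0.63, and Krt6a, which fell by 0.32. Without PH replicate 2, 0 passed. Of 22 measured genes of the dermal papilla signature 0 passed (9 at an unadjusted p under 0.05).

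**Figure D4:**
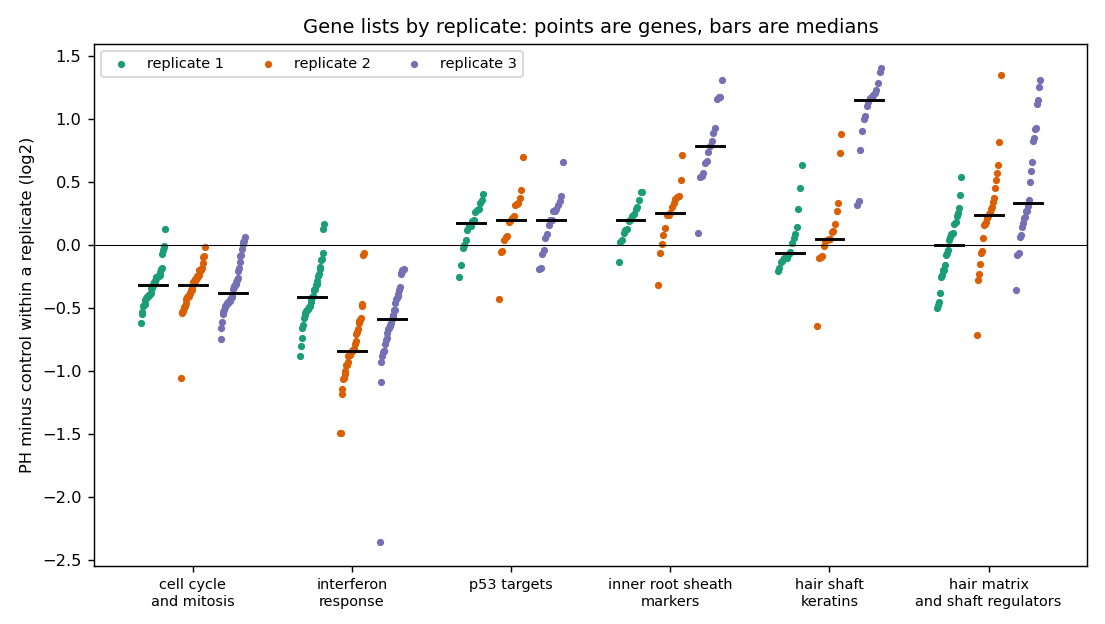
PH minus control within each of the 3 replicates, in log2, for the members of 6 gene lists, with the list median as a bar. The cell cycle list lies near -0.3 in every replicate, while the inner root sheath and hair shaft lists lie highest in replicate 3.

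Genes of vitamin B6 handling did not pass. Of 10 listed uptake and salvage genes 8 were measured, and 0 rose and 0 fell, with a median of 0.15 and 2 at an unadjusted p under 0.05. Pdxk, the kinase of the pathway, had a difference of -0.11 (limma, adjusted p = 0.421), and Pdxp, a phosphatase, 0.26 (0.0819). The phosphatase Alpl differed by 0.49 (0.0856), and Slc19a2, Plpbp, Aox1 and Aox4 by 0.20, 0.10, 0.08 and 0.52, none past the threshold. The probes of Pdxk and of Plpbp disagreed in sign. Among 42 measured enzymes that use pyridoxal phosphate, 3 fell and 0 rose, where 3.65% of all genes fell, and 1 fell when any 1 array but PH replicate 1 was left out. Gldc, which cleaves glycine, had -5.02, -4.83 and -4.47 on PH arrays and -3.70, -3.88 and -3.96 on control arrays, a fall of 0.93 (adjusted p = 0.00267). Bcat1, of branched-chain amino acid breakdown, fell by 0.44, and Gpt by 0.25. Psph, of serine synthesis, fell by 0.40. For the placental growth factor Pgf and its receptor Flt1, the differences were 0.27 (0.299) and 0.33 (0.208).

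The list of interferon response genes was lower on average but had no call. All 33 measured members had a negative difference, with a median of -0.61, and 21 had PH arrays all below control arrays, yet 0 were called (limma; 8 at an unadjusted p under 0.05). With replicate number as a block 2 were called, with normexp background correction 4, and without PH replicate 1 there were 3. Ifi27l2a, described above, and Cxcl11 are interferon-induced genes outside this list that fell. They are named because they fell, and other such genes outside the list were not counted. The within-replicate medians were -0.41, -0.84 and -0.58. Ddx60 had the largest difference at -1.46 (adjusted p = 0.0604). Mast cell markers had a median of -0.76 over 10 measured genes with 0 called (7 at an unadjusted p under 0.05), but 5 fell without PH replicate 1 (median -0.97) and 5 without control replicate 2 (median -1.004). Adipocyte markers had a median of -0.60 over 10 with Pparg alone falling, by 0.51. Of 21 macrophage and monocyte markers, Itgam fell by 0.47 and Aif1 by 0.41. The median of this list was 0.28, -0.22 and -0.54 in replicates 1, 2 and 3, and 0 fell without PH replicate 2 or 3. Among 26 chemokines Cxcl14, which skin keratinocytes secrete, rose by 0.79, and Ccl8, Ccl11 and Cxcl11 fell, by 1.16, 0.98 and 0.46. The chemokine median was 0.39, -0.57 and -0.56 in replicates 1, 2 and 3, and 0 passed without PH replicate 2. Over all genes tested, 1.6% rose and 3.65% fell. How far changed cell shares take part in these values was not tested.

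Few members of the stress and growth lists passed. Of 34 NRF2 targets 1 rose and 2 fell, and of 22 vitamin E and antioxidant genes 1 rose, where 1.6% of all genes rose and 3.65% fell. Hmox1, the heme-degrading enzyme, had 4.86, 4.48 and 4.40 on PH arrays and 5.08, 5.43 and 5.42 on control arrays, a fall of 0.73 (limma, adjusted p = 0.00217). Gpx3, a secreted glutathione peroxidase, had 3.87, 4.09 and 3.64 on PH arrays and 2.97, 2.83 and 2.94 on control arrays, a rise of 0.95 ± 0.19 (adjusted p = 0.00799). Of 16 p53 targets 3 rose and 0 fell, against 1.6% of all genes that rose, but 1 rose without PH replicate 2 and 0 with the XIST covariate. Trp53inp1 rose by 0.59, Tnfrsf10b by 0.35 and Cdkn1a, the cell cycle inhibitor, by 0.31. Of 25 growth factor genes 1 rose, the epidermal growth factor family ligand Areg, by 0.83. Of 33 Wnt pathway genes 1 rose and 1 fell, the receptor Fzd1 by 0.57 and the dim ligand Wnt16 by 0.70. Of 21 epidermal genes 3 rose and 0 fell, against 1.6% of all genes that rose, but 1 rose without PH replicate 1 or 2. Lce3c and Sprr2d, among the 3, rose by 0.83 each. Heat shock genes (20 measured) and clock genes (18 measured) had 0 called, with 2 and 3 at an unadjusted p under 0.05.

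PH was also set against each other compound alone, in 2 comparisons that share the PH arrays. PH and PEE differed in 5791 genes (26.2%), and PH and TA in 13 (0.0589%), with 2246 (10.2%) at an unadjusted p under 0.05 and 0 without any 1 replicate number or with the XIST covariate. The count for PEE was 2462 to 3516 without a replicate number, 1119 with array signal as a covariate and 11150 with normexp. Rbp7 was 1.78 lower with PH than with TA (limma, adjusted p = 0.00472), with means of -0.88 ± 0.10 in PH follicles and 0.91 ± 0.36 in TA follicles (SD). Sprr2d was 1.29 higher with PH than with TA, and the growth factor Epgn 0.78 higher. In the interferon list, 21 of 33 members were higher with PH than with PEE, where 11% of all genes were. The list was below control with both compounds. With PEE against control 31 of the 33 fell (median -1.51), where 1256 of 22065 genes fell, and the median with PH against control was -0.61.

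PH was also added to follicles that had another compound, at the same dose. Of the genes that rose and fell with PH against control, 291 of 352 and 749 of 806 were called the same way for PEE-PH against PEE, where 12.9% of all genes rose and 20.6% fell. For PH-TA against TA it was 118 and 142, where 2.37% and 1.78% did, and for PEE-PH-TA against PEE-TA 5 and 4, where 0.172% and 0.068% did. The PEE-PH and PEE arrays all had the XIST probe above background, though the dimmer Xist probe was not on PEE replicate 1. With array signal as a covariate PEE-PH against PEE had 38 calls, against 7384 (33.5%) without it. PH-TA against TA had 524 rises and 393 falls, but 0 calls with array signal as a covariate, 0 without replicate 1 or 2, 332 without replicate 3 and 69 with the XIST covariate. PEE-PH-TA against PEE-TA had 38 rises and 15 falls, with 0 to 7 calls without a replicate number and 14 with the XIST covariate. In the cell cycle list 27 of 36 fell for PEE-PH against PEE and 17 for PH-TA against TA, with medians of -0.37 in both, and 0 for PEE-PH-TA against PEE-TA (median 0.03). In the inner root sheath list 12 of 15 rose for PEE-PH against PEE (median 0.69), and 0 for PH-TA against TA (0.19) and for PEE-PH-TA against PEE-TA (-0.16). Of 16 hair shaft keratins 11 rose for PEE-PH against PEE (median 0.89), and 0 for PH-TA against TA (0.41) and for PEE-PH-TA against PEE-TA (-0.08).

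Rbp7 fell with PH in all 4 backgrounds. The difference was -2.53 ± 0.23 for PEE-PH against PEE (limma, adjusted p = 2.19e-06), -1.95 for PH-TA against TA (0.000808) and -1.31 for PEE-PH-TA against PEE-TA (0.0258). No gene, and so not Rbp7, passed for PH-TA against TA without replicate 1 or 2 or with array signal as a covariate. The same held for PEE-PH-TA against PEE-TA without replicate 3. Fibin rose by 1.71 with PH beside PEE and by 1.34 beside TA, and its difference beside PEE-TA was -0.02. The effect of PH itself was tested for a difference between backgrounds. Beside PEE, 0 genes (0%) differed from PH alone (limma), with 2473 (11.2%) at an unadjusted p under 0.05, but 39 with replicate number as a block, 4628 without the filter on dim probes and 5290 with normexp. Beside TA, 3 genes (0.0136%) differed, but 1 without replicate 2 and 0 without replicate 3. Beside PEE-TA 933 (4.23%) did, 748 (3.39%) higher and 185 (0.838%) lower, but 0 without replicate 2, 13 without replicate 3 and 4 with the XIST covariate. Hmox1 was the clearest of the 3 beside TA: it fell by 0.73 with PH against control and rose by 0.70 with PH-TA against TA, a difference of 1.43 ± 0.15 (limma, adjusted p = 0.000583). Over the alternative settings this difference was 1.30 to 1.70, with a highest adjusted p of 0.400 (limma). The level of Hmox1 was 7.10 with PEE and 4.46 with TA, against 5.31 in control.

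**Figure D5:**
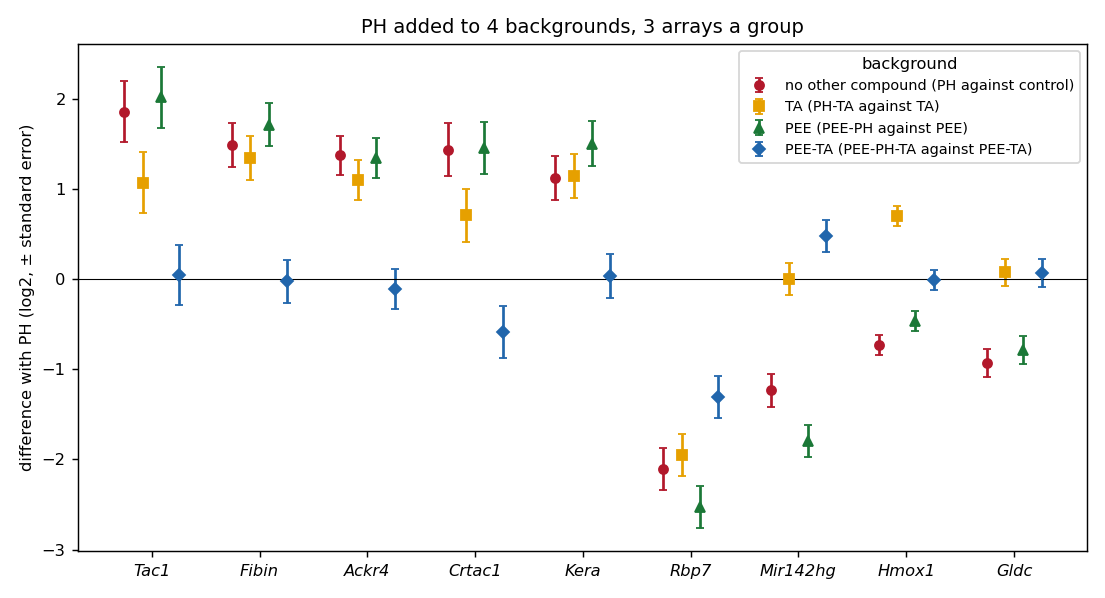
Difference with PH, in log2 with its standard error, for 9 genes when PH was added to no other compound, to TA, to PEE or to PEE-TA, 3 arrays in each group. Rbp7 was below 0 in all 4 backgrounds, Fibin was near 0 only beside PEE-TA, and Hmox1 was above 0 beside TA.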

How the data were processed

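RNA of vibrissa follicles was hybridised to 24 one-colour arrays, 3 in each of 8 groups, and each of 3 slides carried 1 array of every group. The deposited signal intensity was read from the scans by Agilent Feature Extraction 12.0.3.1, per the file headers, and probe positions are on mm9. The authors' deposited table of log2 values, whose normalization is not given in the sources used here, served as an alternative.

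The tested value was log2 of the processed intensity minus the array's 75th percentile. A probe entered the test when all arrays of some group had it well above background (33340 probes), control and non-uniform or outlier spots were left out, and the brightest probe stood for a gene. RefSeq accessions gave symbols for 35405 of 56605 probes. One limma model (R 4.3.3, limma 3.58.1) with 8 group means had 16 residual and 2.19 prior degrees of freedom. Each comparison had its own Benjamini-Hochberg adjustment (threshold 0.05), and p-values measure the spread between these samples. A bound replaces a fold where a group was dim on all its arrays: the mean of the brighter group against, per array, the higher of the lowest well-detected signal and the probe's own.

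Named genes were up to 15 rises and 15 falls by size among genes past the threshold with separated arrays and a gene name, 2 of each per list, 5 of each in other comparisons, the vitamin B6 handling genes, Pgf and Flt1. Not every gene chosen in this way is reported here. Cdkn1a, other list members, the Y-linked genes and XIST were named after their values were seen. Members and lists were chosen with earlier results of these data known. Alternatives were quantile normalization, normexp (offset 50), the deposited table, no filter, mean of probes, replicate block, trended prior, array signal or XIST as a covariate, only the 6 arrays, and each array or replicate left out.

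Per the labels a replicate number marks an independent experiment, and the headers show that it shares a slide. Deviations of same-numbered PH and control arrays correlated at 0.10, 0.08 and 0.12, and the pairing rests on the labels and slides. In simulated data for PH against control with 22065 genes, 61% of genes shifted by log2 0.5 and 75% of those shifted by log2 1 were called, with 7 false calls. For each size 100 genes were shifted, and noise was independent between genes. The false calls thus do not cover effects of an array that many genes share. Python 3.11.15 with matplotlib 3.10.9 drew the figures.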

Additional observations from a re-analysis of the deposited data

Results flagged for a closer look

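The effect of PH differed between backgrounds in the following results, by the test of the difference itself. A positive value means that the difference with PH was higher in the other background than against control. Beside TA, 3 genes differed: Hmox1 (1.43), Gfod1 (1.16) and Lime1 (0.68). Of all genes, 1 differed without replicate 2 and 0 without replicate 3. Beside PEE-TA, 933 genes differed. Among named genes that rose with PH alone, the effect was lower beside PEE-TA in Tac1 (-1.81), Piwil2 (-2.06), Crtac1 (-2.03), Fibin (-1.51), Ackr4 (-1.48), Tmem213 (-1.27) and Best1 (-1.21). The same held for Comp (-2.26) and Spon1 (-2.11), which did not pass against control. Among genes that fell with PH alone, the effect was higher beside PEE-TA in H2bc23 (2.20), L1td1 (1.84), Pcdhgb1 (1.80), Gdap7 (1.73), Mir142hg (1.71), Hoxd3os1 (1.61), Apol7a (1.59) and Ppnr (1.17). Mettl21c (2.02) and Zfhx2os (1.73) differed likewise without passing against control. The genes that rose or fell with PH alone were picked by PH minus control, which enters this difference with its sign reversed. Their direction here is thus partly set by that choice. PEE-TA replicate 3 was among the arrays without XIST signal, and the part of that in these differences was not tested gene by gene beyond the covariate.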

How the results depend on the processing

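Arrays left out one at a time gave 56 to 367 rises and 223 to 831 falls with PH against control, 1 to 9 falls among cell cycle genes and 0 to 8 rises among inner root sheath markers. Replicate numbers left out gave 2462 to 3516 genes for PH against PEE, 0 to 0 for PH against TA, 3009 to 5822 for PEE-PH against PEE, 0 to 332 for PH-TA against TA and 0 to 7 for PEE-PH-TA against PEE-TA. The effect of PH then differed in 0 to 1 genes with PEE, 0 to 3 with TA and 0 to 863 with PEE-TA. In what follows a count for PEE or TA is of genes that differed between PH and that compound, a count for a combination is against the same combination without PH, and settings are named where they moved a count. Without the filter on dim probes they were 190 rises, 8 cell cycle falls, 3 inner root sheath rises, 11991 for PEE, 8 for TA, 15269 for PEE-PH, 6132 for PH-TA, 24 for PEE-PH-TA, and differences of 4628 with PEE and 402 with PEE-TA. With array signal as a covariate they were 160 rises, 474 falls, 6 cell cycle falls, 1 inner root sheath rise, 1119 for PEE, 38 for PEE-PH, 0 for PH-TA, 35 for PEE-PH-TA and 233 differences with PEE-TA. With only the 6 arrays they were 72 rises, 246 falls, 1 cell cycle fall and 0 inner root sheath rises. With XIST as a covariate, an alternative added later, they were 21 rises, 131 falls, 0 and 0 in the 2 lists, 0 for TA, 69 for PH-TA, 14 for PEE-PH-TA and 4 differences with PEE-TA. With normexp they were 11150 for PEE, 25 for TA, 13587 for PEE-PH, 6682 for PH-TA and 5290 differences with PEE. The deposited table gave 26 for TA, 22 for PEE-PH-TA, and 6 and 551 differences with TA and PEE-TA. The mean of probes gave 29 for TA, and the trended prior 35 for TA and 96 for PEE-PH-TA. The replicate block gave 84 for PEE-PH-TA and 39 differences with PEE. It changed no other count by over 1.5 times, and gave 402 rises and 963 falls. Signs turned for values near 0 that did not pass: Pdxk (0.0245) and Plpbp (-0.21) with the mean of probes, and Aox1 with normexp (-0.0368), over arrays left out (-0.0864 to 0.231) and with XIST (-0.0372). With normexp Cyp26a1 (-0.0800) and Ldc1 (-0.0175) against PEE and the Spon1 difference with PEE-TA (0.0150) turned. The causes were not tested.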
